A study of Mus musculus with 2 samples.

Results

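The protocadherin genes were examined in a map of open chromatin of mouse cardiac progenitor cells (CPCs), made by ATAC-seq, an assay whose enzyme, the transposase Tn5, cuts and tags DNA where it is not covered by nucleosomes. A peak was counted as a protocadherin peak when the gene symbol that the authors assigned to it, that of the nearest transcription start site (TSS), began with Pcdh, so that 34 of 26232 distinct peaks were chosen, or 0.13%. Of these, 17 were assigned to the alpha, beta and gamma clusters on chromosome 18 and 17 to protocadherins elsewhere in the genome, and together they carried 23 gene symbols. The cells came from E14 Tg(Nkx2-5-EmGFP) embryonic stem (ES) cells, for which the labels give the strain C57BL/6. They were taken at day 5 of a cardiac differentiation. The directed protocol of the study used BMP4 and LIF in the first culture and Activin A, VEGF and BMP4 in the aggregates. Its monolayer received VEGF, bFGF and FGF10. A hanging drop method is also described, and the study's ATAC-seq methods do not say which was used. Both samples were of these day 5 cells and came from independent differentiations, and the Isl1 knockdown cells of the study are not analysed here. The authors deposited 1 list of peaks found in both replicates, which gives neither a score nor a p-value nor anything for each replicate alone. Read depth is therefore unknown, no value below has a replicate error, and no difference below could be tested against the spread between replicates. In a mixed culture, a peak carried by fewer cells cannot be told apart from one less open in each cell. As a check of the label, a peak lay within 500 bp of a start site in 7 of 9 cardiac progenitor markers, 2 of 4 pluripotent markers and 4 of 4 neural markers that the annotation holds. Over all protein coding genes the share was 56.1% of 22365. Neural markers thus scored no lower than cardiac ones, and these counts do not settle the label. The cardiac Mef2c, counted as without such a peak, had one 16 bp from its assigned TSS. Single cardiac and pluripotent markers were mixed, since Isl1, the progenitor factor the study is about, and the pluripotent marker Klf4 had 8 assigned peaks each, Nanog had 2, and the cardiac Hand2 and the pluripotent Pou5f1 had 0.

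Protocadherins are cadherin-related proteins of the cell surface that bind identical molecules on neighbouring cells. In the alpha and gamma clusters each of a row of variable first exons has its own promoter and is spliced to shared constant exons, whereas most beta genes consist of 1 long exon and have no constant exons. The last variable exons of the alpha and gamma clusters, named C-type, differ in sequence and regulation from the alternate exons before them, and in neurons the alternate promoters are chosen one by one, with the insulator protein CTCF bound at the promoter and often within the exon. The protocadherins that stand alone comprise the delta-1 group (Pcdh1, Pcdh7, Pcdh9 and Pcdh11x), the delta-2 group (Pcdh8, Pcdh10, Pcdh17, Pcdh18 and Pcdh19) and Pcdh12, Pcdh15 and Pcdh20. They are best known from the nervous system, and Pcdh8, also called paraxial protocadherin, from the mesoderm that flanks the neural tube.

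The delta-2 genes are shown first by sequence, because all 5 had a peak over the start site and because their upstream sequences shared a short motif, which was noticed in them after the peaks were known. The sequences below are the 120 bases before the start site, 5′ to 3′ on the strand of the gene, read from mm9 by coordinates, and capitals mark ATTGG or its reverse complement CCAAT, the core of the CCAAT box of many promoters. The start site was that of a peak-overlapped annotated transcript where there was one, or the one implied by the deposited distance of a peak that covered it, whichever lay further upstream. Pcdh9 of the delta-1 group follows, and Pcdh7 and Pcdh20 are given as 2 genes whose 120 bases lay outside every peak. The windows of Pcdh15 and Pcdh11x, each wholly inside a peak, are not printed and held no ATTGG, so motif and peak did not always go together.
Pcdh8, chr14:80171120-80171239, minus strand: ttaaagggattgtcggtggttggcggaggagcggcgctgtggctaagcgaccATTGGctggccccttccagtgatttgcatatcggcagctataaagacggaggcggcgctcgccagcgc
Pcdh10, chr3:45182200-45182319, plus strand: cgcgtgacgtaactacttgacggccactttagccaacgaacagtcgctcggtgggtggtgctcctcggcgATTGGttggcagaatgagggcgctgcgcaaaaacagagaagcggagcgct
Pcdh17, chr14:84843250-84843369, plus strand: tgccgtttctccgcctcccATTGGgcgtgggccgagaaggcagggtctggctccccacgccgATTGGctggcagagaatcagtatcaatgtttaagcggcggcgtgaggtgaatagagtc
Pcdh18, chr3:49561239-49561358, minus strand: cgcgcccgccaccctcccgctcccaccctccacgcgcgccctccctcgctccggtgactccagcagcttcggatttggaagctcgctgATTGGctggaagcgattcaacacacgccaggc
Pcdh19, chrX:130223533-130223652, minus strand: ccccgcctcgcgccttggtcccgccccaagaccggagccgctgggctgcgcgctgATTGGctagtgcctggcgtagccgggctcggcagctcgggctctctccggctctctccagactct
Pcdh9, chr14:94289889-94290008, minus strand: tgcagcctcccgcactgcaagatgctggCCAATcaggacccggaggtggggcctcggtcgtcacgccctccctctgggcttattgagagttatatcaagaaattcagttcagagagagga
Pcdh7, chr5:58109140-58109259, plus strand: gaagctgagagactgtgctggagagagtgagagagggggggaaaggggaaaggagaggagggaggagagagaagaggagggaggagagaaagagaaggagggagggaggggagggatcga
Pcdh20, chr14:88871204-88871323, minus strand: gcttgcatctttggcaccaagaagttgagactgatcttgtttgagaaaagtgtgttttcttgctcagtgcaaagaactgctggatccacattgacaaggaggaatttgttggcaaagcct
ATTGG was found on either strand in 5 of 5 delta-2 sequences and in that of Pcdh9, which made 6 of the 10 single genes off the chromosome of the clusters, against 20.7% of the same windows before 31338 protein coding start sites and 23.9% of those before the 14181 start sites that a peak overlapped. The longer ATTGGNTGG was present in Pcdh8, Pcdh10, Pcdh17 and Pcdh18, 4 of 5 delta-2 genes, and in 1.16% of all windows and 1.66% of those at overlapped start sites. Pcdh7, Pcdh11x, Pcdh15 and Pcdh20 held neither. The windows of the 5 delta-2 genes held between 9 and 13 CG dinucleotides each. Those of Pcdh9 and Pcdh15, also under a peak, held 5 and 14, and those of Pcdh7 and Pcdh20 held 1 and 0. The count for Pcdh11x is not given. Both motifs were picked from these same delta-2 sequences, so their counts there are a description and no measure of enrichment. These matches describe the letters and say nothing of which protein was bound.

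The clusters and the other protocadherins had equal numbers of peaks but differed in how many genes carried them. In the clusters 14 of 58 genes had an assigned peak (24.1%, 95% Wilson interval 15 to 36.5%), and elsewhere 9 of 12 did (75%, 46.8 to 91.1%), while 60.6% of 21896 protein coding gene symbols had at least 1. By cluster the counts were 2 of 14 alpha genes, 9 of 22 beta genes and 3 of 22 gamma genes, the last including the transcribed pseudogene Pcdhgb8. All Wilson intervals cover counting error over genes or peaks in this list alone. A region called open in 1 replicate is not in the list, so a gene without a peak was not measured as closed.

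Start sites, counted without use of the assigned symbols, again placed the clusters below the single genes. The single genes were then not above all protein coding start sites. A peak of any assignment came within 500 bp of 4 of 41 annotated start sites in the clusters (9.76%, 3.86 to 22.5%) and of 8 of 19 elsewhere (42.1%, 23.1 to 63.7%), and of 45.3% of all protein coding start sites. The 4 in the clusters were those of Pcdhac1, Pcdhac2, Pcdhgc3 and Pcdhgc4, all C-type. The other 37 cluster start sites, of which 8 were alpha, 22 beta and 7 gamma, had no peak (0 of 37, at most 9.41% by the Wilson interval). The annotation used held 8 start sites for the 12 alternate alpha genes and 6 for the 19 alternate gamma genes. Most alternate gamma promoters were therefore not examined at this step.

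All 5 C-type genes had an assigned peak, and none of the 12 alternate alpha and 19 alternate gamma genes did. The peak assigned to Pcdhac1 (chr18:37249186-37250072) was 887 bp wide with its midpoint 162 bp upstream of the TSS, and that of Pcdhac2 (chr18:37302924-37304725) was 1802 bp wide with its midpoint 201 bp downstream. In the gamma cluster the midpoint lay 187 bp downstream of the TSS for Pcdhgc3, with a width of 1313 bp, and 84 bp upstream for Pcdhgc4, with a width of 1788 bp. Each of these 4 peaks covered the TSS itself. Pcdhgc5 was the exception among the C-type genes, since the nearest peak to its start site began 2406 bp away. Its 3 peaks had midpoints 3103, 5876 and 16575 bp downstream, over the introns and a 3′ untranslated stretch that the annotation places in the gamma transcription unit, and the second of them measured 3129 bp, with 99.1% of all peaks no wider. A further peak of Pcdhac2 lay 34461 bp downstream of its TSS, over an exon of the noncoding gene Gm10544 within the alpha transcription unit, and was 960 bp wide.

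The alternate promoters fell into long stretches without a peak. The 226.5 kb between the peak of Gm6756 and that of Pcdhac1 held all 8 annotated alternate alpha start sites, and the 161.2 kb between the peak of Taf7, a subunit gene of the general transcription factor TFIID that lies between the beta and gamma clusters, and that of Pcdhgc3 held all 6 annotated alternate gamma start sites. Stretches at least as long made up 8.42% and 12.5% of the 26211 stretches between neighbouring peaks in the genome. Within the 911.6 kb from the first alpha start site to the end of the gamma transcripts there were 19 peaks, or 20.8 per Mb, against 8.33 per Mb on chromosome 18 and 9.88 per Mb over all chromosomes. Counting every peak that overlapped a cluster, the densities were 11.7 per Mb for alpha, 31.2 for beta and 35.8 for gamma. The gamma peaks stood in the C-type and constant part at the 3′ end, where a peak of 3696 bp assigned to Mir6979 overlapped the end of the cluster.

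**Figure D1:**
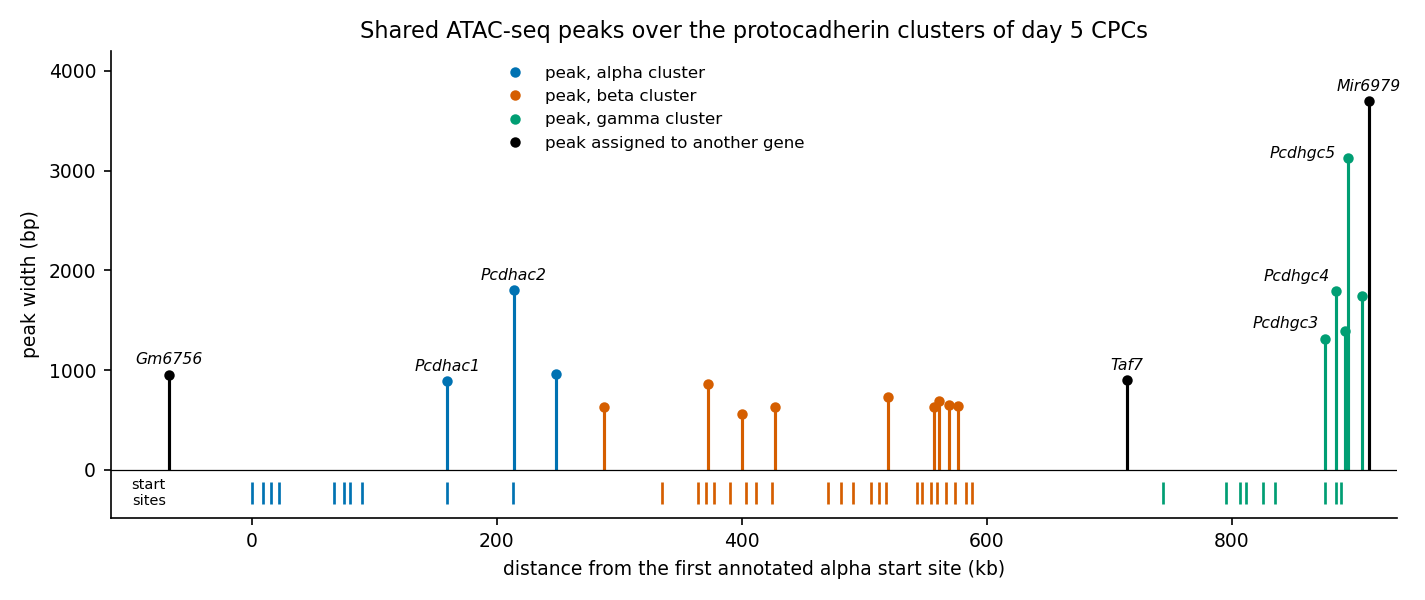
Peaks over the protocadherin clusters, with distance from the first annotated alpha start site in kb on the horizontal axis and peak width in bp as the height of each line, coloured by cluster, and annotated start sites as ticks below the axis. The alternate alpha and gamma start sites lie in stretches of 226.5 and 161.2 kb without a peak, and the 5 gamma peaks stand together at the end of the cluster.

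Base composition differed between the 4 start sites with a peak and the other cluster start sites. A start site was called CpG-rich where the 500 bp on either side had a GC content of at least 50% and the CpG ratio, the CpG count observed over that expected from the base content, was at least 0.6. Of the cluster start sites, 4 were CpG-rich and a peak overlapped 4 of 4, and 37 were CpG-poor and a peak overlapped 0. Pcdhgc5 was among the latter, with a GC content of 52.8% and a ratio of 0.25. The split was less clean at the protocadherins elsewhere, where peaks overlapped 5 of 7 CpG-rich and 3 of 12 CpG-poor start sites. Among all protein coding start sites, peaks overlapped 88.7% of 11278 CpG-rich ones and 20.8% of 20060 CpG-poor ones. The beta start sites were poor by both measures, with a GC content between 37.7 and 50.5% (median 41.5%) and a ratio between 0.16 and 0.55. The 8 alternate alpha start sites missed the class through GC content alone, which lay between 44.2 and 48.2%, and their ratio lay between 0.64 and 0.73. Counted with 4 gamma start sites of the same kind, peaks overlapped none of these 12, against 57.7% of 404 protein coding start sites with a GC content under 50% and a ratio of at least 0.6.

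Sequence shared between gene copies was frequent at the alternate alpha start sites but not at most others without a peak. Of the 32-base sequences within 500 bp of a start site, between 14.9 and 27.5% occurred more than once in mm9 at the 8 alternate alpha start sites (median 22.2%), up to 15.8% did at beta start sites (median 0) and up to 19.6% at the 7 gamma start sites without a peak (median 1.75%). The share was 0 at all 4 C-type start sites with a peak and also at that of Pcdhgc5. Elsewhere it was 0 at the 11 start sites without a peak and up to 6.6% at the 8 with one. A short read from a repeated sequence cannot by itself be placed with certainty. The authors' filter removed reads with an unmapped mate, and how often a mate in unique sequence placed such a read is unknown. The part that repeated sequence played in the absence of peaks at the alpha start sites was not tested.

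**Figure D2:**
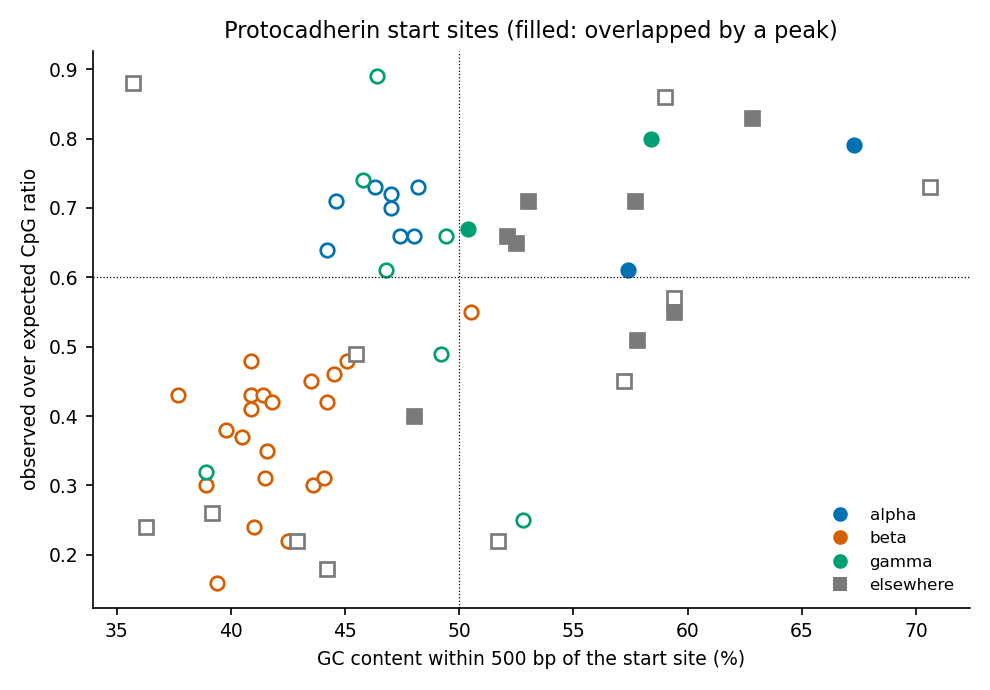
GC content in percent and observed over expected CpG ratio within 500 bp of 60 protocadherin start sites, as circles for the clusters and squares elsewhere, filled where a peak came within 500 bp. The 4 filled circles lie in the upper right field bounded by the dotted lines at 50% and 0.6, and all 22 beta start sites are open.

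The beta cluster had 9 assigned peaks, which carried the symbols of 9 genes, and none lay at a promoter. In 7 of them the midpoint was between 1956 and 2215 bp downstream of the TSS (median 2121 bp). The limits of this range are those of the 7 peaks themselves. It held 54 of all 26232 peaks, or 0.206%, these 7 included, so the share is a description and no measure of enrichment. The 7 genes were Pcdhb3 (2188 bp), Pcdhb8 (1956 bp), Pcdhb14 (2191 bp), Pcdhb17 (2113 bp), Pcdhb18 (2082 bp), Pcdhb19 (2121 bp) and Pcdhb20 (2215 bp). For 6 of them the midpoint fell in the coding sequence, and for Pcdhb20, annotated as a pseudogene, in a noncoding exon. Measured from the other end, the midpoints of these 6 peaks lay between 346 and 447 bp before the last coding base. The other 2 beta peaks were upstream, 46754 bp from the TSS for Pcdhb1 and 3851 bp for Pcdhb6.

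**Figure D3:**
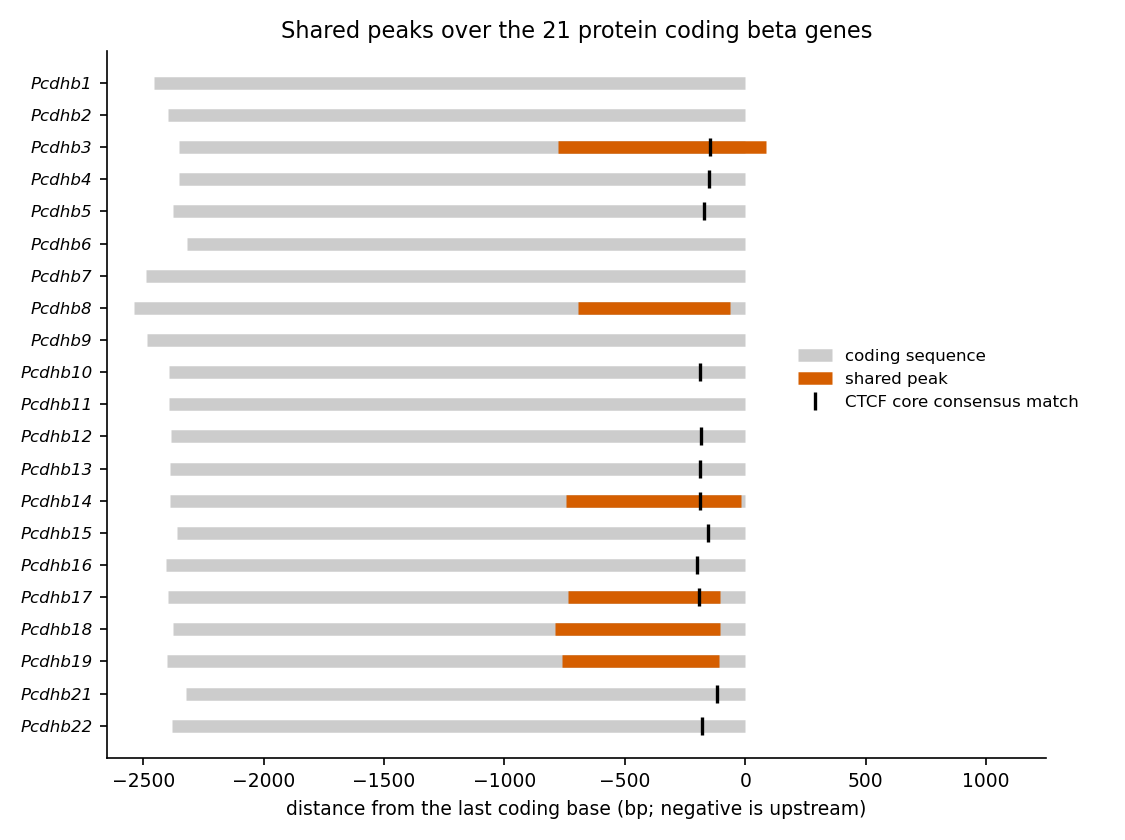
The 21 protein coding beta genes aligned on the last coding base, with the coding sequence in grey, peaks in orange and matches to the CTCF core consensus as black ticks, and distance from the last coding base in bp on the horizontal axis. The 6 peaks over coding sequence have midpoints between 346 and 447 bp before its end, and the 12 matches lie between 118 and 199 bp before it, in 3 genes with a peak and 9 without.

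The 3′ part of the beta coding sequence differed in composition from the beta start sites. In windows of 600 bp centred where the peaks lay, the GC content was between 58.2 and 60.8% in the 6 genes with a peak (median 59.5%) and between 43 and 61.5% in the 15 without (median 58.5%), so the ranges overlapped. A match to the CTCF core consensus, searched on both strands, was found on the minus strand near the end of the coding sequence in 3 of the 6 genes with a peak and 9 of the 15 without, and each of the matches in the 6 genes was inside the peak. With Pcdhb20, 4 of the 9 beta peaks held a match in their central 600 bp, at Pcdhb3, Pcdhb14, Pcdhb17 and Pcdhb20, against 3.87% of all peaks and 0 of 25 other protocadherin peaks. No match says only that these letters are not in the window.

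Part of the sequence of most beta peaks recurs in the genome. At least 15% of the 32-base sequences of a peak occurred more than once in mm9 in 8 of 9 beta peaks, 0 of 3 alpha peaks, 0 of 5 gamma peaks and 4 of 17 elsewhere, against 8.95% of all peaks. At least 50% did so in 1 of 9 beta peaks and 2 of 17 elsewhere, against 3.9% of all peaks. In the 7 peaks inside beta genes the share was between 19 and 43.8%, and every repeated sequence recurred within the clusters themselves. The peak upstream of Pcdhb6 differed, with 89.3% of its 32-base sequences repeated and a median of 325 copies in the genome. The share in the 600 bp windows was between 21.6 and 44.1% for beta genes with a peak (median 34.5%) and between 0 and 36% for those without (median 22.3%). The methods give no filter on mapping quality, and how far reads of one beta gene were placed in another was not tested.

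Most single protocadherins outside the clusters had a peak within 500 bp of a start site, some of them a peak with another assigned symbol. At least 1 start site was overlapped in 8 of 12 genes (66.7%, 39.1 to 86.2%), an interval that includes the 56.1% of 22365 protein coding genes. The delta-2 genes all had one. Pcdh8 had a single peak of 3906 bp (chr14:80167760-80171665), and 99.7% of all peaks were no wider. That peak covered the TSS, and its midpoint lay 1407 bp downstream in a coding exon. The peaks of Pcdh17 (1155 bp), Pcdh18 (704 bp) and Pcdh19 (1270 bp), genes with roles in brain development, had midpoints 82 bp upstream, 24 bp downstream and 53 bp upstream of the TSS. Pcdh10, also known from the brain, had no assigned peak, yet its TSS at position 45182320 of chromosome 3 lay inside a peak of 964 bp assigned to the noncoding gene 2610316D01Rik.

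The delta-1 genes were more varied. Pcdh9 had a peak of 1808 bp with its midpoint 18 bp downstream of the deposited start site, which lay 1937 bp from the nearest annotated start, and 2 peaks 672962 and 839075 bp downstream, in introns. In those 2 distant peaks 85.8 and 90.1% of the 32-base sequences were repeated, with medians of 125 and 2196.5 copies in the genome, whereas the peak at the start held 0 repeated ones. Pcdh11x, on the X chromosome, had peaks 99 and 2797 bp downstream of its TSS, of 908 and 785 bp. Pcdh7 had 1 peak, 15730 bp downstream within an intron, and a peak of 2975 bp assigned to 4932441J04Rik ended 677 bp before its annotated start site. Pcdh1, known from epithelia, had the largest number, with 5 peaks on chromosome 18 of which none was at a start site: 1 lay 7224 bp upstream and 4 lay 24364, 34688, 64958 and 98004 bp downstream, between genes, with widths between 952 and 2381 bp. One of the 3 start sites of Pcdh1 was CpG-rich, with a GC content of 70.6%, and the nearest peak to it was 4227 bp away.

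Pcdh20 had 2 peaks, a peak of 769 bp with its midpoint 460 bp downstream of the TSS and one of 468 bp 7960 bp upstream, the narrowest of all 34. Pcdh15, a protein of the tip links of hair cells in the inner ear, had no assigned peak, but the first of its 4 annotated start sites, which was CpG-rich, lay under a peak of 1475 bp assigned to A330049N07Rik. Pcdh12, known from blood vessel endothelium, had no assigned peak and none within 11775 bp of its start site. Thus Pcdh12 and Pcdh1 on chromosome 18 had no peak at a start site, and neither did Pcdh7 and, by the annotated start, Pcdh9.

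**Figure D4:**
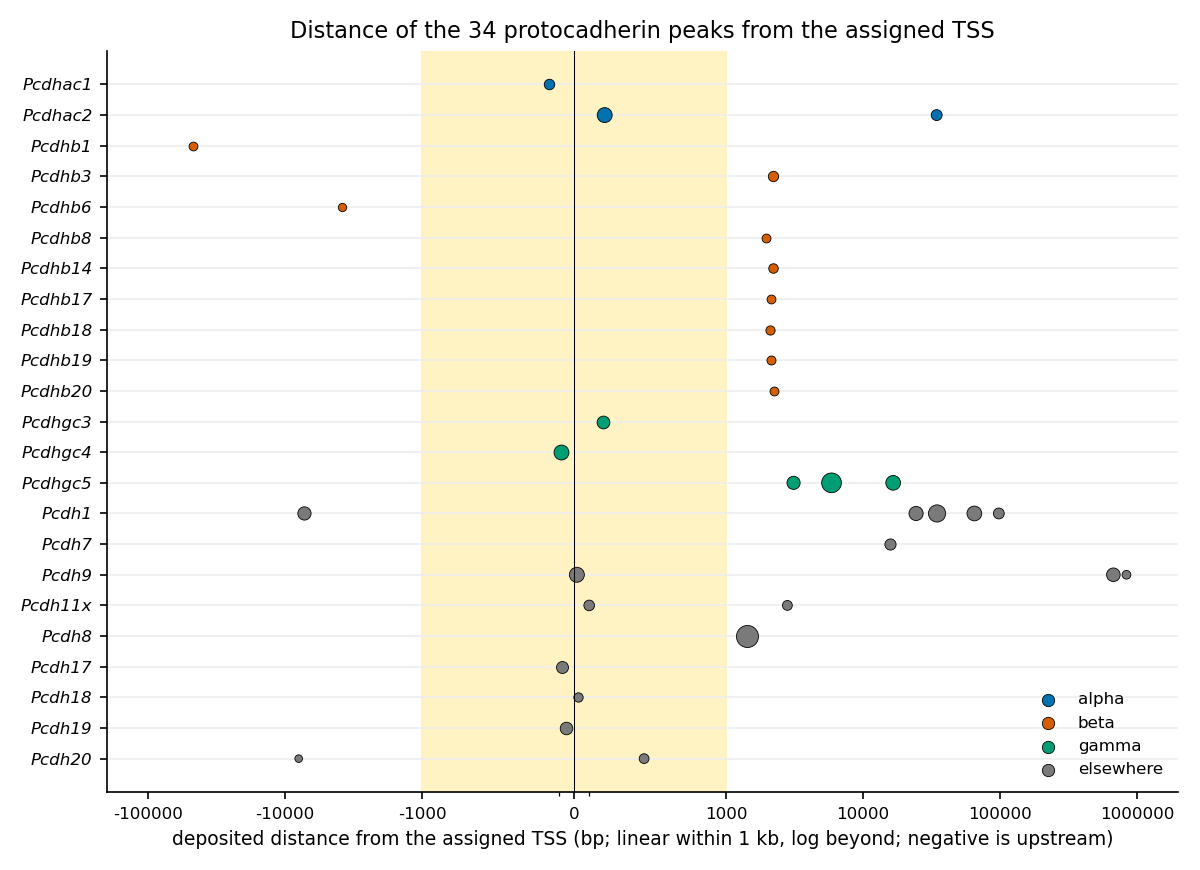
Deposited distance in bp from the assigned TSS to the midpoint of each of the 34 protocadherin peaks, by gene, on an axis that is linear within 1 kb (shaded) and logarithmic beyond, with point area proportional to peak width. Of the beta peaks, 7 line up between 1956 and 2215 bp and none is in the shaded range, where 4 other cluster peaks and 6 peaks elsewhere lie.

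By distance, 4 of 17 cluster peaks (23.5%, 9.56 to 47.3%) and 6 of 17 peaks elsewhere (35.3%, 17.3 to 58.7%) had the midpoint within 1 kb of the assigned TSS, against 44.9% of all peaks. These intervals overlapped. The median absolute distance was 2188 bp in the clusters (95% order-statistic interval 1956 to 3851 bp) and 7224 bp elsewhere (99 to 34688 bp), and 4154 bp for all peaks. Of the 17 cluster peaks 7 were the beta peaks near 2121 bp. Without the 5 peaks of Pcdh1 the median elsewhere was 933.5 bp.

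The beta peaks were narrower, and the gamma peaks wider, than the median of all peaks. All 9 beta peaks were between 564 and 863 bp wide (median 643 bp) and lay below the median of all peaks, 1081 bp, and below that of the peaks beyond 1 kb from a TSS, 911 bp. The 5 gamma peaks, between 1313 and 3129 bp (median 1739 bp), lay above 1081 bp and did not overlap the beta range. Against the median of peaks within 1 kb of a TSS, 1326 bp, the Pcdhgc3 peak (1313 bp) was not wide. The Pcdhgc4 peak (1788 bp) lay above that median. The 3 alpha peaks were 887, 960 and 1802 bp wide. Elsewhere the range was 468 to 3906 bp with a median of 1155 bp (785 to 1615 bp), which overlapped the interval of the clusters as a whole (median 863 bp, 643 to 1397 bp). Width depends on the caller and on the depth of the replicate that gave the coordinates, as well as on the chromatin.

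Peaks of the single genes often stood alone. The gap from a peak edge to the nearest other peak of any gene had a median of 6847 bp in the clusters (3751 to 32879 bp) and 22922 bp elsewhere (8326 to 165064 bp), against 17922 bp for all peaks. No cluster peak was more than 100 kb from its neighbour, but 7 of 17 peaks elsewhere were (41.2%, 21.6 to 64%), compared with 8.83% of all peaks. They were the peaks of Pcdh8, Pcdh17, Pcdh18 and Pcdh19 and all 3 of Pcdh9, and Pcdh17 was the most isolated, with 4226326 bp to the next peak on one side and 1064347 bp on the other. Within the clusters this gap to the nearest peak ran from 510 bp, between 2 peaks of Pcdhgc5, to 52851 bp at Pcdhac1. Between peaks that follow each other the beta cluster held short stretches, of 3.75, 6.9 and 6.71 kb from Pcdhb17 to Pcdhb20. Longer ones were 84 kb between the peaks of Pcdhb1 and Pcdhb3 and 91.9 kb between those of Pcdhb8 and Pcdhb14. The stretch of 84 kb began outside the cluster, at the peak 46754 bp upstream of the Pcdhb1 TSS. Taf7 stood 137.1 kb beyond Pcdhb20. Of all stretches in the genome, 24.9, 22.7 and 15% were at least as long as these longer ones, in that order.

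**Figure D5:**
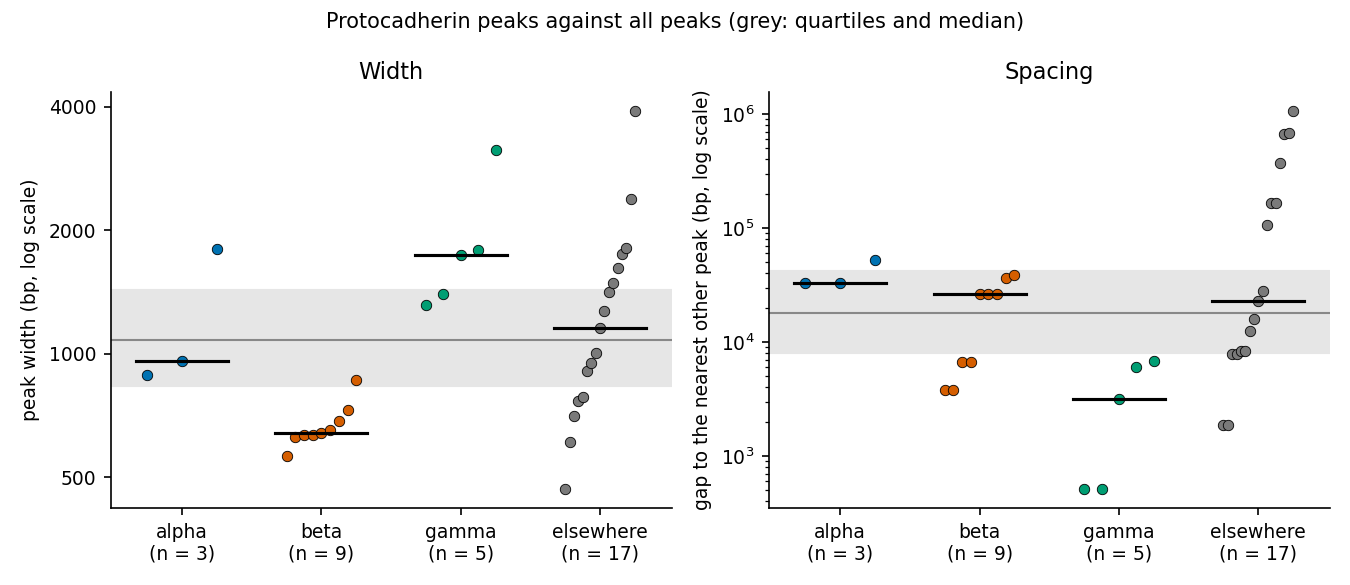
Width and gap to the nearest other peak, both in bp on log scales, for each alpha, beta and gamma peak and each protocadherin peak elsewhere, with the median of each group as a black line and the quartiles and median of all 26232 peaks in grey. The beta peaks lie below the grey line for width, and 7 peaks elsewhere lie above 100 kb for the gap.

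Short motifs of other factors were counted in the central 600 bp of each peak, on both strands. AGATAA, the site of GATA factors, was found in 2 of 17 peaks elsewhere (Pcdh1 and Pcdh7), 1 of 3 alpha peaks (Pcdhac1), 1 of 5 gamma peaks (Pcdhgc5) and 0 of 9 beta peaks, against 17.6% of all peaks. CTAATG, of the kind bound by Isl1, was found in 2 of 17 peaks elsewhere, the distant peak of Pcdh20 and one of Pcdh1, and in 0 of 17 cluster peaks, against 12.7% of all peaks. TTCAGCACC, the left part of the motif of the neuronal repressor REST, occurred in the peak of Pcdhb1 and in 1 peak of Pcdh1, against 1.11% of all peaks. The TATA box letters TATAAA were in 1 beta peak, 2 gamma peaks and 1 peak elsewhere, against 11.7%.

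Other genes of the same system were read by start site, against the 56.1% of all protein coding genes. Among genes known to regulate the clustered protocadherins, which include Ctcf, Rad21, Smc1a and Smc3 of the CTCF and cohesin machinery, 15 of 15 annotated genes had a peak within 500 bp of a start site. Of genes whose proteins bind protocadherins or act downstream of them, 15 of 18 did, among them Ptk2, Ret and Wasf1 but not Ptk2b. Of 48 other cadherins, 26 did, among them Cdh1, Cdh2 and Cdh3.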

How the data were processed

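Peaks were those of ATAC-seq on day 5 CPCs, 2 replicates of 1 group. Per the study's methods, the authors mapped reads to mm9 with bowtie2, filtered them with samtools, removed duplicates with Picard 1.136, called peaks in each replicate with MACS14 with a fixed shift and no fitted model, dropped ENCODE blacklist regions and kept the peaks of 1 replicate that shared 1 bp or more with a peak of the second, with bedtools 2.15. The versions are those of the submitters' processing notes too. The nearest TSS was assigned with HOMER, as the methods state for ChIP-Seq. The deposited values are peak start and end and the distance from the TSS, in bp. There is no count or score, so depth and precision per sample are unknown.

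The 26429 lines held 26232 distinct intervals, counted once each, and positions are 1-based. The build was checked against NCBIM37 (mm9), whose sequence and GENCODE vM1 models were used. GENCODE joins the alpha and the gamma isoforms into few genes, so genes were counted by RefSeq symbols (GRCm38.p6, names only), in place of the annotation first planned, and start sites by GENCODE. Positive distances are downstream. Of the start sites implied by the 34 distances, 26 lay within 1 bp of an annotated one.

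Overlaps, gaps, base composition, motifs and 32-base sequences (every 20th for all peaks) were computed in Python 3.11.15 with pysam 0.24.0, numpy 2.4.6 and pandas 2.3.3, and were tested on simulated data. Shares have 95% Wilson and medians 95% order-statistic intervals. No test was made, since peaks and genes are not replicates. Every protocadherin with a peak is named, other listed genes in list order. The members, lists and motifs were chosen with earlier results of these data known. Alternatives changed the width filter, the window, the distance limit, the start sites and the place of the single genes of chromosome 18.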

Additional observations from a re-analysis of the deposited data

How the results depend on the processing

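Of 39 alternative values for 14 results, 31 stayed within 1.5 times the count or within the interval of the value reported, and 8 moved. With peaks wider than the median of all peaks alone, the clusters kept 6 peaks and the other protocadherins 9, the share of genes with a peak fell to 6.9% in the clusters and 41.7% elsewhere, the share of promoters overlapped elsewhere became 21.1%, the share of cluster peaks within 1 kb of the assigned TSS became 50%, and their median absolute distance became 1652 bp. This setting removes all beta peaks. The median width of cluster peaks within 1 kb of the assigned TSS was 1550.5 bp. Adding the start sites implied by the deposited distances, an alternative chosen after seeing the data, gave 45% for promoters overlapped elsewhere. Counting Pcdh1 with the clusters gave 22 and 12 peaks. Among wider peaks the median gap elsewhere was 122175 bp. No paired analysis was possible because both replicates are represented by 1 shared list, and for the same reason neither replicate could be left out. Depth is unknown, so the absence of a peak cannot be told apart from too few reads.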
